A study of Mus musculus with 18 samples.

Results

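The later state of denervated mouse whisker pad was described by comparing tissue collected 7 days after facial nerve transection with tissue collected 3 days after it. The 6 denervated samples compared, 3 at day 7 and 3 at day 3, were chosen by their labels and make up 6 of the 18 RNA-seq samples of the series. They came from 6 different mice, so nothing pairs a day 7 sample with a day 3 sample. In each mouse 2 branches of the right facial nerve, the buccal and the superior marginal, were cut. The left side had a sham operation, a skin incision that left the nerve uncut. Each denervated sample (R) thus has a sham sample (L) from the same animal. The mice were adults, and the study used both sexes. The study gives a median age and an age range for the RNA-seq mice as a whole, which were all several months old. Strain, sex and age were not given for each group in the sources used here. A punch of rostral whisker pad, holding skin together with muscle, was taken for RNA, which makes every value an average over all the cells of that punch. The day 1 samples, 3 from the denervated and 3 from the sham side, entered the fits, where they help set the spread behind each p. Their values are otherwise used below to place a value in time.

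Whisker pad muscles move the whiskers and are driven by motor axons of the facial nerve. A muscle fiber that loses its axon spreads acetylcholine receptors beyond the synapse, brings back receptor and channel forms of immature muscle, and switches on the regulatory factors Myog and Myod1. With longer denervation the fiber also changes the amounts and isoforms of its contractile proteins.

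Values are TPM, a transcript abundance corrected for length, normalized between samples, summed over the transcripts of each gene. Differences are log2 day 7 minus day 3, taken on log2(value + 0.5), which understates the change of genes with low values. A gene was said to have risen or fallen where limma, a linear model fitted over all genes tested, gave a Benjamini-Hochberg adjusted p under 0.05. An exact permutation test of 3 against 3 samples cannot go below p = 0.1, so single genes were not tested alone.

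Several features of the libraries bear on what follows. The 4 Y-linked genes measured summed to between 120 and 124 in the day 3 denervated samples and to 122 in day 7 replicate 3, but only to 2.05 in day 7 replicate 1 and 2.89 in day 7 replicate 2. Day 7 replicates 1 and 2 therefore carried almost no Y-linked transcripts, as female mice would, whereas every day 3 mouse carried them, and day and sex are partly mixed in this comparison. The 4 haemoglobin genes summed to 190112 in day 7 denervated replicate 1 and to between 24336 and 33052 in the 5 other samples compared. That 1 sample stood apart in haemoglobin. The sum of 12 muscle markers lay between 15995 and 21429 at day 3 and between 23941 and 27745 at day 7 on the denervated side, and moved in the same direction on the sham side, from 15302 to 17921 at day 3 to 22661 to 26183 at day 7. Muscle transcripts took a larger part of the RNA at day 7 on both sides, and in such punches fewer cells of a type and less RNA per cell cannot be told apart. The ribosomal pseudogene Rpl15-ps2 and the pseudogenes Gm6123 and Gm10704, named after their values were seen, were below 1 in all 6 day 3 samples of both sides and above 3 in all 6 day 7 samples of both sides. Rpl15-ps2 read 68.9, 73.6 and 0.32 in the denervated day 1 samples and 63.2, 61.8 and 0.958 in the sham samples of the same mice. Within day 1 it therefore differed between mice and was alike on the 2 sides of each mouse.

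Of 15041 genes tested on the denervated side, 54 (0.359%) differed between days 7 and 3, 41 of them higher at day 7 (0.273%) and 13 lower (0.0864%). At an unadjusted p under 0.05 there were 2122 genes (14.1%), 1120 of them higher (7.45%) and 1002 lower (6.66%). By size alone, 207 genes (1.38%) were at least 2-fold higher at day 7 with no overlap between the samples of each day, and 60 (0.399%) were at least 2-fold lower. Without the condition of size, 1643 genes (10.9%) were higher in all 3 day 7 samples than in any day 3 sample, and 1451 (9.65%) were lower. The genes that rose included a myosin heavy chain, Z-disc and actin cytoskeleton proteins, ion channels, calcium store proteins and dystrophin. The larger rises also held genes outside muscle, such as Trbj1-4, Klk1b7-ps, Meig1 and Cd300ld5. The genes that fell had all been above the sham level at day 3.

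Fewer genes passed whenever 1 library was left out. Each of those fits also held fewer samples, and the part this played was not tested. Leaving out day 3 replicates 1, 2 and 3 in turn left 17, 8 and 28 genes, and leaving out day 7 replicates 1, 2 and 3 left 5, 10 and 26. Myh2, Cited1, Aldh3b1 and the genes without a proper symbol 3425401B19Rik and Gm15310 passed in all 6 of those fits. In none of them passed 27 of the 54, among them Xirp2, Myot, Hrc, Dmd and Kcne1l. The 7 risen genes below 1 in every day 3 sample, Kcne1l and Trbj1-4 among them, were tested in only 3 of these fits. They failed the filter whenever a day 7 sample was left out, so they could not add to those counts. Klhl41, Vgll2 and Kcnc4 passed in 1. A term for the mice without Y-linked transcripts left 5 genes, 3 of them among the 54 (Traf4, Trbj1-4 and Gm15310), and all 54 kept their sign. With that term the day 7 level rests largely on the 1 day 7 mouse that had Y-linked transcripts. Fitting the 6 samples of days 3 and 7 without day 1 gave 52 genes, 26 of them among the 54. All 18 samples in 1 fit gave 58 genes, 25 of them among the 54. Day 1 denervated replicate 1 was poor in muscle, with markers summing to 6223, against 14046 and 12997 in replicates 2 and 3.

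Only Trbj1-4, a T cell receptor segment, had a larger rise than Myh2 (ENSMUSG00000033196.17, chr11:67171027-67197517 on GRCm38), which encodes the heavy chain of fast oxidative type 2A fibers. Myh2 read 1.13, 2.98 and 1.35 normalized TPM in the day 3 denervated samples and 20.1, 25.5 and 19.9 at day 7. The lowest day 7 sample was well above the highest day 3 sample. The log2 difference was 3.34 ± 0.29 (SE, adjusted p = 0.00416). On the sham side Myh2 read 5.80, 4.83 and 3.72 at day 3 and 14.5, 31.5 and 6.14 at day 7, a log2 difference of 1.5, and the difference between the 2 sides had an unadjusted p of 0.0775. Denervated Myh2 was below every sham sample at day 3, whereas at day 7 the denervated and sham samples overlapped. Rescaled to the muscle markers of each sample, Myh2 was still higher at day 7, by 2.67 (adjusted p = 0.000596), so its rise was larger than that of the muscle markers. With the Y-linked term its adjusted p was 0.0838, and with all 18 samples in 1 fit 0.0557.

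The other fast heavy chains moved in the same direction without passing. Myh1, the type 2X chain, read 150, 167 and 273 at day 3 and 451, 464 and 531 at day 7 (log2 difference 1.34, adjusted p = 0.156). Myh4, the type 2B chain and the most abundant of them, read 587, 663 and 850 at day 3 and 1181, 1024 and 1072 at day 7 (0.66, adjusted p = 0.297). As a share of all summed myosin heavy chain values, Myh4 took 79.4%, 78.9% and 75.4% at day 3, then 71.3%, 67.1% and 65.8% at day 7. Myh1 took 20.3%, 19.8% and 24.2%, then 27.2%, 30.4% and 32.6%. Myh2 made up 0.152%, 0.354% and 0.12% at day 3, then 1.21%, 1.67% and 1.22%. The shares of Myh1 and Myh2 were higher and that of Myh4 lower in every day 7 denervated sample than in any at day 3. Myh2 stayed a minor chain throughout. Sham shares of Myh2 lay from 0.329% to 0.425% at day 3 and from 0.49% to 1.81% at day 7.

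**Figure D1:**
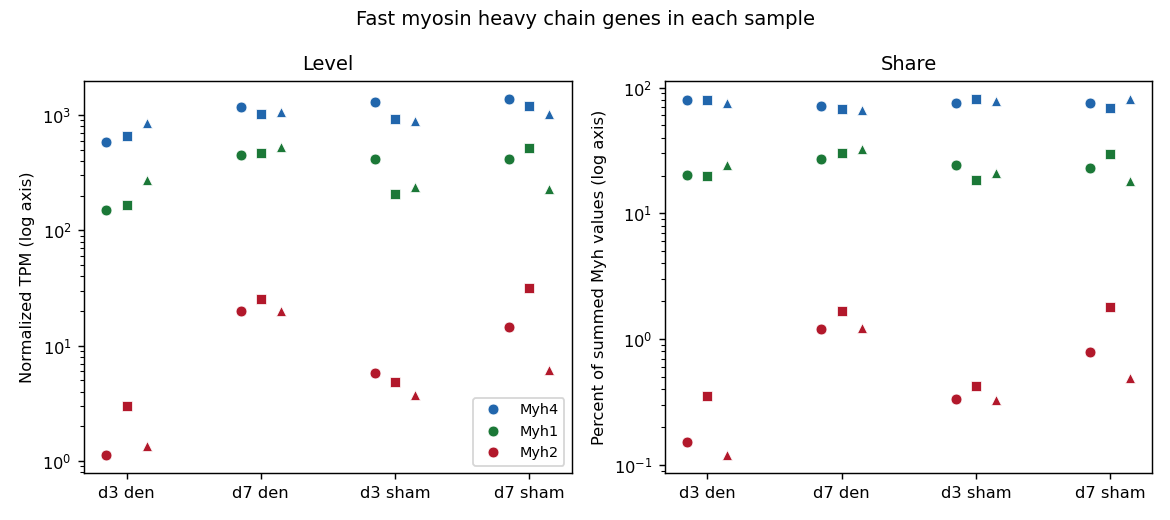
Left, normalized TPM of the 3 fast myosin heavy chain genes in each sample; right, their percent of all summed myosin heavy chain values; both axes are logarithmic, d is day, den is denervated, and circle, square and triangle are replicates 1, 2 and 3. Denervated Myh2 went from 1.13 to 2.98 at day 3 to 19.9 to 25.5 at day 7, whereas Myh4 stayed the main chain in every sample.

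Most genes of the sarcomere frame had higher values at day 7 than at day 3. Of 23 genes of the sarcomere frame (titin, nebulin, M-line and Z-disc proteins), 1 passed, against 0.273% of all genes called higher. Of the 23, 21 had a log2 difference above 0. In 18 of the 23, every day 7 sample was higher than any at day 3, against 10.9% of all genes. The median log2 difference of the list was 0.89 on the denervated side and 0.48 on the sham side. Over all genes tested the median was 0.00198 and -0.0241. Rescaled to the muscle markers, the denervated median of the list was 0.23, where that of all genes was -0.63. The member that passed was Myot, myotilin of the Z-disc, which read 92.2, 95.3 and 78.4 at day 3 and 210, 199 and 226 at day 7 (log2 difference 1.26 ± 0.17, adjusted p = 0.028). Tcap, telethonin, which caps titin at the Z-disc, read 129, 251 and 296 at day 3 and 756, 1091 and 654 at day 7 and did not pass (1.94, adjusted p = 0.0556). Among 8 myosin light chain and actin genes tested with limma none passed. Yet 5 had an unadjusted p under 0.05 and 7 did not overlap between the days, all higher, against 7.45% and 10.9% of all genes. Myl6b, a myosin light chain, read 2.11, 5.98 and 8.53 at day 3 and 21.4, 21.5 and 30.8 at day 7 (2.21, adjusted p = 0.066). Its sham values had a log2 difference of -0.20, and the difference between sides had an unadjusted p of 0.000163. Of 10 troponin and tropomyosin genes tested none passed by limma, with a median of 0.56 (sham 0.36).

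Klhl41 and Xirp2, both of the muscle actin cytoskeleton, were among the 15 largest rises. Klhl41 (ENSMUSG00000075307.3), which stabilizes nebulin and the thin filament, read 66.5, 60.7 and 98.4 at day 3 and 255, 241 and 293 at day 7 (1.83 ± 0.23, adjusted p = 0.0233). Its sham samples lay at 206, 150 and 155 at day 3 and 208, 214 and 189 at day 7, so that denervated Klhl41 was below every sham sample at day 3 and above every one at day 7. Xirp2 (ENSMUSG00000027022.13), an actin-binding repeat protein of muscle attachment sites, read 8.16, 10.2 and 13.1 at day 3 and 37.7, 35.1 and 46.6 at day 7 (1.89 ± 0.27, adjusted p = 0.0349). The samples of the days did not overlap. Sham Xirp2 lay from 17.7 to 23.1 at day 3 and from 34.3 to 40.9 at day 7.

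The promoters of some genes that changed are shown because genes of one tissue that rise together can share sequence motifs before their start. They are the 250 bases before the RefSeq start on GRCm38.p6, in the direction of transcription, and capitals mark the E-box CANNTG, the motif of Myog and Myod1, and the MEF2 consensus, searched on both strands. Xirp2 (chr2:67445752-67446001, plus strand) held 2 overlapping E-boxes and a MEF2 match starting 74 bases before the start. Klhl41 (chr2:69669870-69670119, plus strand) held 4 E-boxes and a MEF2 match starting 63 bases before the start. Hrc (chr7:45335019-45335268, plus strand) held 1 E-box 22 bases before the start, while Myh2 (chr11:67170777-67171026, plus strand) and Traf3ip3 (chr1:193201547-193201796, minus strand), the last of which fell, held neither.
Xirp2: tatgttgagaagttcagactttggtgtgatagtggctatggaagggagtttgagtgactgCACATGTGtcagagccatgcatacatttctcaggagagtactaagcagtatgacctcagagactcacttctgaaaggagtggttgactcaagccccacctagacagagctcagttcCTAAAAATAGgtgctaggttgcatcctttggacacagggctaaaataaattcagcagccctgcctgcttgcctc
Klhl41: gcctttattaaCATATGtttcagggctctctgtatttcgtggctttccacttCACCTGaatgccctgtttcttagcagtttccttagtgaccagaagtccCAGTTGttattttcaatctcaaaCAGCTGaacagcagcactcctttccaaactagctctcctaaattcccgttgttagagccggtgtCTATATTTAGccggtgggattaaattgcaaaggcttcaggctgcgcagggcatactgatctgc
Hrc: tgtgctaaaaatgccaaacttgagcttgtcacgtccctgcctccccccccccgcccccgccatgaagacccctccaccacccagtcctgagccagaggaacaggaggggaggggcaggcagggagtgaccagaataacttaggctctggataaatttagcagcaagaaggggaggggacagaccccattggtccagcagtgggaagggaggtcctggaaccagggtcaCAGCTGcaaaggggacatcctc
Myh2: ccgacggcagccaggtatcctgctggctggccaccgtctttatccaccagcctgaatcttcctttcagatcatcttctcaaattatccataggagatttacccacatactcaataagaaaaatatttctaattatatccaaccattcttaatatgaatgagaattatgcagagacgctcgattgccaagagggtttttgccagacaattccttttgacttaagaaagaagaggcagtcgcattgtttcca
Traf3ip3: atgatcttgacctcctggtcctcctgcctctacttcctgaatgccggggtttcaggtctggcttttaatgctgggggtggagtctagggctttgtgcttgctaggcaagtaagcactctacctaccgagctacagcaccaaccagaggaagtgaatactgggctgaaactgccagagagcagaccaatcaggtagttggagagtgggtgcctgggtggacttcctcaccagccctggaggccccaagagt

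Over the genes that rose, 32 of 41 had such a window, of which 22 (68.8%) held an E-box and 5 (15.6%) a MEF2 match, in Xirp2, Klhl41, Lrrc14b, Klhl33 and Dmd. Of 27025 genes with a window, 69.3% held an E-box and 3.42% a MEF2 match. Of the genes that fell, 9 of 13 had a window, of which 4 (44.4%) held an E-box and 1 (11.1%), Nol12, a MEF2 match. These are matches of letters and not sites known to be bound, and the share with an E-box was close to that of all genes.

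Genes of ion channels were among those that rose. Kcnc4, a voltage-gated potassium channel of the Kv3 family, read 5.16, 8.10 and 10.8 at day 3 and 27.3, 24.2 and 23.6 at day 7 (1.64 ± 0.24, adjusted p = 0.0413). Kcne1l, an accessory subunit of potassium channels, read 0.579, 0.41 and 0.488 at day 3 and 2.24, 2.79 and 3.70 at day 7 (1.76 ± 0.24, adjusted p = 0.03). No sham sample of Kcne1l at days 3 and 7 exceeded 0.54. The potassium channel list held 17 tested genes, of which these 2 passed, against 0.273% of all genes called higher, though Kcne1l entered the test through its day 7 values alone. Of the 17, 11 were higher in every day 7 sample, against 10.9% of all genes. The list's median was 0.46 (sham 0.29), and -0.11 rescaled to the muscle markers, where that of all genes was -0.63. At most 1 of the 17 passed when 1 sample was left out, and Kcne1l was not tested without a day 7 sample. Scn4b, an auxiliary subunit of the sodium channel, read 7.78, 7.10 and 8.18 at day 3 and 18, 15.4 and 17.4 at day 7 (1.09 ± 0.11, adjusted p = 0.00918). Scn4b remained below every sham sample on both days, with sham values of 34.6, 34.3 and 25.8 at day 3 and 56.3, 42.3 and 31.7 at day 7. It was the 1 gene of 13 tested sodium channel, chloride channel and sodium pump genes that passed, against 0.273% of all genes called higher. Clcn1, the muscle chloride channel, which sets resting conductance, read 2.71, 5.81 and 5.90 at day 3 and 20.9, 17.5 and 12.2 at day 7 (1.74, adjusted p = 0.0653).

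Among genes of the calcium store, 2 of 22 passed, both higher, against 0.273% of all genes. Hrc, the histidine-rich calcium-binding protein of the sarcoplasmic reticulum, read 46.8, 58.7 and 77.8 at day 3 and 163, 148 and 179 at day 7 (1.44 ± 0.23, adjusted p = 0.0486). Asph, whose locus encodes junctin and junctate of the same store, read 27.7, 38.0 and 48.2 at day 3 and 81.9, 81.2 and 84.9 at day 7 (1.15 ± 0.18, adjusted p = 0.0458). Neither gene's days overlapped. Casq1, calsequestrin of fast fibers, read 56.6, 184 and 199 at day 3 and 421, 452 and 603 at day 7 and did not pass (1.92, adjusted p = 0.132). Sln, sarcolipin, an inhibitor of the calcium pump, had lower values, 65.7, 11.7 and 27.7 at day 3 and 4.05, 7.00 and 10.1 at day 7 (-1.99, adjusted p = 0.232). The median of the list was 0.33, and on the sham side 0.60, so the list's median was larger on the sham side. Without day 3 replicate 1 the denervated median was 0.13 and without day 3 replicate 3 it was 0.49. Rescaled to the muscle markers it was -0.34, where that of all genes was -0.63. At most 1 gene of the list passed when 1 sample was left out.

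In the dystrophin complex, which links the cytoskeleton of the fiber to the matrix, 2 of 14 genes passed, both higher, against 0.273% of all genes, and neither passed in any of the 6 fits that left out 1 sample. Dmd, dystrophin, read 21.0, 19.8 and 19 at day 3 and 33.3, 32.0 and 34.5 at day 7 (0.72 ± 0.09, adjusted p = 0.0232). Sham Dmd lay between 18.5 and 26.4 over both days, so the day 7 denervated samples stood above all 6 sham samples. The difference of the sides had an unadjusted p of 0.006. The median of the complex was 0.31 (sham 0.20) and 0.18 without day 3 replicate 1. Rescaled to the muscle markers it was -0.36, where that of all genes was -0.63.

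Other rises were of regulatory or less studied genes. Vgll2, a cofactor of TEAD transcription factors found in skeletal muscle, read 2.21, 1.13 and 1.83 at day 3 and 9.15, 13.4 and 6.14 at day 7 (2.14 ± 0.28, adjusted p = 0.0265). Lrrc30 read 7.32, 11.2 and 15.8 at day 3 and 34.5, 41.2 and 30.0 at day 7, and Yipf7 read 7.39, 9.01 and 13.4 at day 3 and 28.6, 26.1 and 36.3 at day 7. Tceal7 read 1.96, 3.06 and 5.98 at day 3 and 13.5, 16 and 14.6 at day 7, and Cd300ld5, of a family of myeloid receptors with close copies that could share reads, 2.89, 1.44 and 2.95 at day 3 and 15.1, 10.8 and 10.1 at day 7. In each of these the samples of the days stood apart. Meig1, a gene of sperm development, read 0.193, 0.503 and 0.34 at day 3 and 2.68, 3.06 and 5.33 at day 7, against a sham log2 difference of -0.33. Tigd4 read 0.225, 0.388 and 0.486 at day 3 and 2.89, 3.15 and 2.83 at day 7, and Lrrc14b, on the list of muscle metabolism, 0.258, 0 and 0.511 at day 3 and 2.98, 2.00 and 2.20 at day 7. Trbj1-4, a joining segment of the T cell receptor beta locus (chr6:41534811-41534861), was listed at 0 in every sham sample and every denervated sample of days 1 and 3, and at 9.46, 6.30 and 5.93 at day 7. The segment is short, and the number of reads behind such values cannot be read from TPM. Meig1, Tigd4, Lrrc14b, Trbj1-4, Kcne1l, the kallikrein pseudogene Klk1b7-ps and Gm10167, the 7 risen genes below 1 in every day 3 sample, passed the filter on low values through day 7 alone and so had to differ. Klk1b7-ps (0.540, 0 and 0 at day 3; 5.11, 7.80 and 3.55 at day 7) and Gm10167 (0.064, 0 and 0.0359; 2.22, 1.68 and 2.30) had sham log2 differences of 2.28 and 2.34, beside denervated differences of 3.17 and 2.26.

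**Figure D2:**
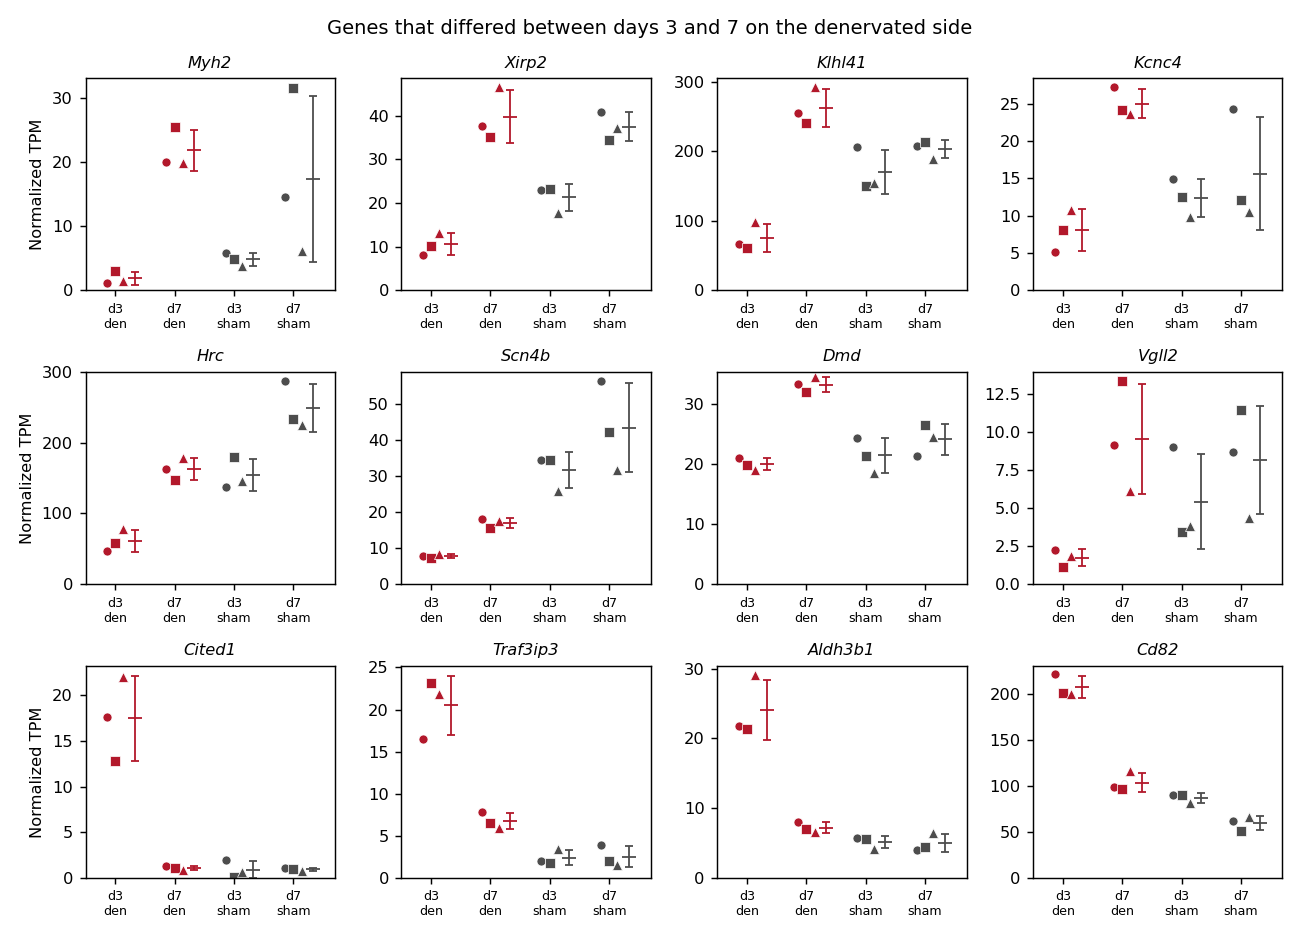
Normalized TPM (y axis, from 0) of 8 genes that rose and 4 that fell, in red for denervated (den) and gray for sham samples at days 3 and 7 (d3, d7), with replicates 1, 2 and 3 as circle, square and triangle and the mean ± SD of 3 samples beside them. The denervated samples of the days do not overlap in any of them; Cited1, Traf3ip3, Aldh3b1 and Cd82 stood above the sham samples at day 3, and Scn4b stayed below them on both days.

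The falls were led by Cited1 (ENSMUSG00000051159.16, chrX:102247381-102252181), a coactivator that binds CBP and p300. Cited1 read 7.4, 14.7 and 12.9 in the denervated samples at day 1, 17.6, 12.8 and 22.1 at day 3, and 1.34, 1.10 and 0.892 at day 7 (log2 difference -3.46 ± 0.28, adjusted p = 0.00408). Sham Cited1 never exceeded 1.93, and its day 7 values were 1.03, 0.981 and 0.759. With the Y-linked term the fall was -3.66 with an adjusted p of 0.0554. The gene was thus high on the denervated side on both early days and near the sham level at day 7. The transcribed pseudogene Gm15310 (chr16:94358941-94359312), named after its values were seen and possibly sharing reads with a parent gene, read 25.2, 24.2 and 21.3 at day 3 and 1.5, 1.5 and 1.6 at day 7. It was listed at or below 0.424 in each of the other 12 samples.

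Aldh3b1, an aldehyde dehydrogenase, read 21.7, 21.4 and 29.1 at day 3 and 8.04, 6.99 and 6.53 at day 7 (-1.67 ± 0.14, adjusted p = 0.00416). Its day 7 denervated values were still above every day 7 sham value, of which the highest was 6.45. Traf3ip3, which binds TRAF3, read 16.5, 23.2 and 21.8 at day 3 and 7.79, 6.51 and 5.97 at day 7 (-1.53 ± 0.20, adjusted p = 0.0262), with sham values between 1.57 and 3.92. The value at day 7 was lower than at day 3 and higher than in any sham sample. Traf4, an adaptor of the same family of signaling proteins, read 19.7, 25.3 and 22.3 at day 3 and 8.24, 9.40 and 7.14 at day 7 (-1.39 ± 0.13, adjusted p = 0.00571). Cd82, a tetraspanin of myogenic and immune cells, read 222, 202 and 200 at day 3 and 98.8, 96.7 and 116 at day 7 (-1.0 ± 0.13, adjusted p = 0.0232). Dppa5a, an RNA-binding protein of early embryo cells, read 6.69, 4.16 and 5.77 at day 3 and 0.903, 0.883 and 1.64 at day 7. Fam19a5, a secreted chemokine-like protein, read 16.4, 16.7 and 14.8 at day 3 and 7.06, 9.99 and 7.08 at day 7. Smaller falls were those of the 5 remaining genes, from -0.83 in Tmem189 and -0.75 in Timm10, a chaperone of mitochondrial import, to -0.72 and -0.63 in the nucleolar genes Nol12 and Nop16, and -0.70 in Nfkb2, which encodes p100 of the noncanonical NF-kB pathway. On the sham side Nfkb2 had a log2 difference of -0.61 and did not pass (adjusted p = 0.116).

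The position of these genes relative to the sham side of the same mice was then counted. Of the 13 genes that fell, 13 were higher in all denervated than in all sham samples at day 3, and 9 (69.2%) at day 7, where over all genes tested the shares were 11.9% and 10.8%. Of the 41 that rose, 22 (53.7%) were lower in all denervated than in all sham samples at day 3, against 9.63% of all genes, and 9 (22%) at day 7, against 6.76%. At day 7, 12 (29.3%) were higher in all denervated than in all sham samples, where 1 had been at day 3. The denervated values of both days set the choice of these genes and also enter these counts, so the counts describe the genes and test nothing.

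The sham side was used to ask which differences between the days belonged to the denervated side. Sham samples of days 7 and 3 differed in 1 of 15854 genes by limma (0.00631%), with 2050 at an unadjusted p under 0.05. This sham test used the model of all 18 samples, with another spread and filter than the 54 denervated calls. With all 18 samples in 1 fit the denervated days differed in 58 genes, 25 of them among the 54. Of the 41 genes that rose on the denervated side, 38 had the same sign on the sham side, with medians of 1.27 and 0.52. Of the 13 that fell, 9 had the same sign, with medians of -1.0 and -0.15. A test of the difference between the sides, in one model of all 18 samples, passed for 3 of 15854 genes (0.0189%): Cited1 (-3.72, adjusted p = 0.0281), Gm15310 (-3.29, adjusted p = 0.00251) and Trbj1-4. Trbj1-4 met the filter of this test through its day 7 denervated samples alone and so had to differ. With the mouse as a block the test passed for 4, the fourth being Dusp13, a muscle phosphatase. Over all genes, 1088 (6.86%) had an unadjusted p under 0.05 for the difference without the block, and 1750 with it. Of the genes that passed on the denervated side, 12 of the 41 rises and 12 of the 13 falls did so without the block. The genes had been chosen by their denervated difference, which is part of the difference tested, so these counts are raised by the choice. Most of the rises, Myh2 and Xirp2 included, were therefore not shown to be larger on the denervated than on the sham side. With the mouse as a block in limma, the adjusted p of the difference was 0.431 for Myh2 and 0.396 for Xirp2.

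**Figure D3:**
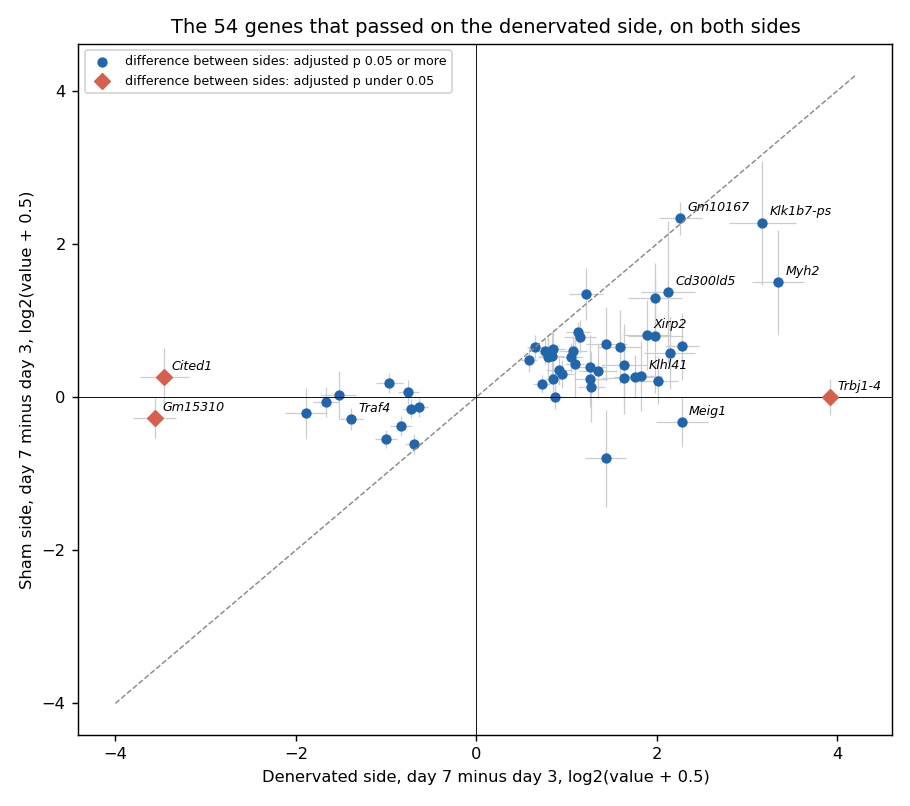
Log2 difference of day 7 minus day 3 for the 54 genes that passed on the denervated side (x axis) against the same genes on the sham side (y axis), on log2(value + 0.5), with bars of 1 SE; diamonds passed the test of the difference between the sides, and the dashed line marks equal differences. The denervated SE came from the fit of the 9 denervated samples and the sham SE from the fit of all 18 samples. Most rises lie to the right of 0 and above 0 but under the line. Cited1, Gm15310 and Trbj1-4 lie near 0 on the sham axis.

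Genes of the synapse, many of which denervation is known to induce, were compared next. None of the 5 acetylcholine receptor subunits passed, nor had any an unadjusted p under 0.05 in the limma fit. Of the 5, 4 had a log2 difference below 0, and 1 was lower in every day 7 sample, against 9.65% of all genes. Their median was -0.23 (sham 0.24), and from -0.47 to 0.09 when 1 sample was left out. Chrna1, the alpha subunit, read 1.73, 8.19 and 7.74 at day 1, 50.4, 75.8 and 89.7 at day 3 and 47.7, 43.5 and 50.6 at day 7 (log2 difference of days 7 and 3 -0.56, adjusted p = 0.634). Chrng, the fetal gamma subunit, was below 0.03 at day 1, then read 23.0, 61.8 and 59.6 at day 3 and 49.6, 44.2 and 23.9 at day 7. Sham Chrng had a mean of at most 0.775 on any day. Both subunits thus overlapped between days 3 and 7, though for Chrna1 only by 50.6 at day 7 against 50.4 at day 3. Musk, the receptor kinase of the synapse, read 5.23, 6.28 and 4.78 at day 3 and 4.45, 2.80 and 3.07 at day 7 (-0.60, adjusted p = 0.502). None of the 17 tested synapse genes, Musk included, passed with limma, and 5, against 14.1% of all genes, had an unadjusted p under 0.05. Among them Ncam1, the adhesion molecule that spreads over denervated fibers, read 28.3, 46.9 and 53.7 at day 3 and 84.0, 65.6 and 122 at day 7 (1.07, adjusted p = 0.283), where the sham log2 difference was -0.56.

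Of the 14 myogenic genes tested, 8 had a log2 difference above 0 and 6 below, with a median of 0.13 (sham 0.15), and none passed by limma, while 4 (against 14.1% of all genes) had an unadjusted p under 0.05, 1 higher and 3 lower. Those named here are Myod1 and Myog, the factors that denervation is known to induce, and Mymx, all with lower values at day 7. Myod1 read 42.8, 117 and 77.7 at day 3 and 22.8, 28.6 and 25.2 at day 7 (-1.50, adjusted p = 0.119), Myog 178, 200 and 166 at day 3 and 89.0, 104 and 106 at day 7 (-0.86, adjusted p = 0.302), and Mymx, a fusion peptide of myoblasts, 4.68, 2.27 and 7.93 at day 3 and 1.99, 1.07 and 0.44 at day 7 (-1.68, adjusted p = 0.181). The days did not overlap in any of the 3. Ppp1r27, a phosphatase regulator of the list of denervation-induced genes, read 219, 118 and 81.6 at day 3 and 21.4, 36.4 and 11.7 at day 7 (-2.58, adjusted p = 0.166), and Dusp13 read 259, 326 and 250 at day 3 and 129, 156 and 96.4 at day 7 (-1.14, adjusted p = 0.289). At day 7 these were still above their sham samples, which reached at most 54.1 for Dusp13. Igfn1, of the same list, read 0.199, 11.9 and 21.2 at day 3 and 38.5, 76.3 and 47.4 at day 7, and its day 3 samples differed widely among themselves (3.19, adjusted p = 0.25). Of the 15 genes of that list tested, Traf3ip3 alone passed, against 0.0864% of all genes called lower.

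**Figure D4:**
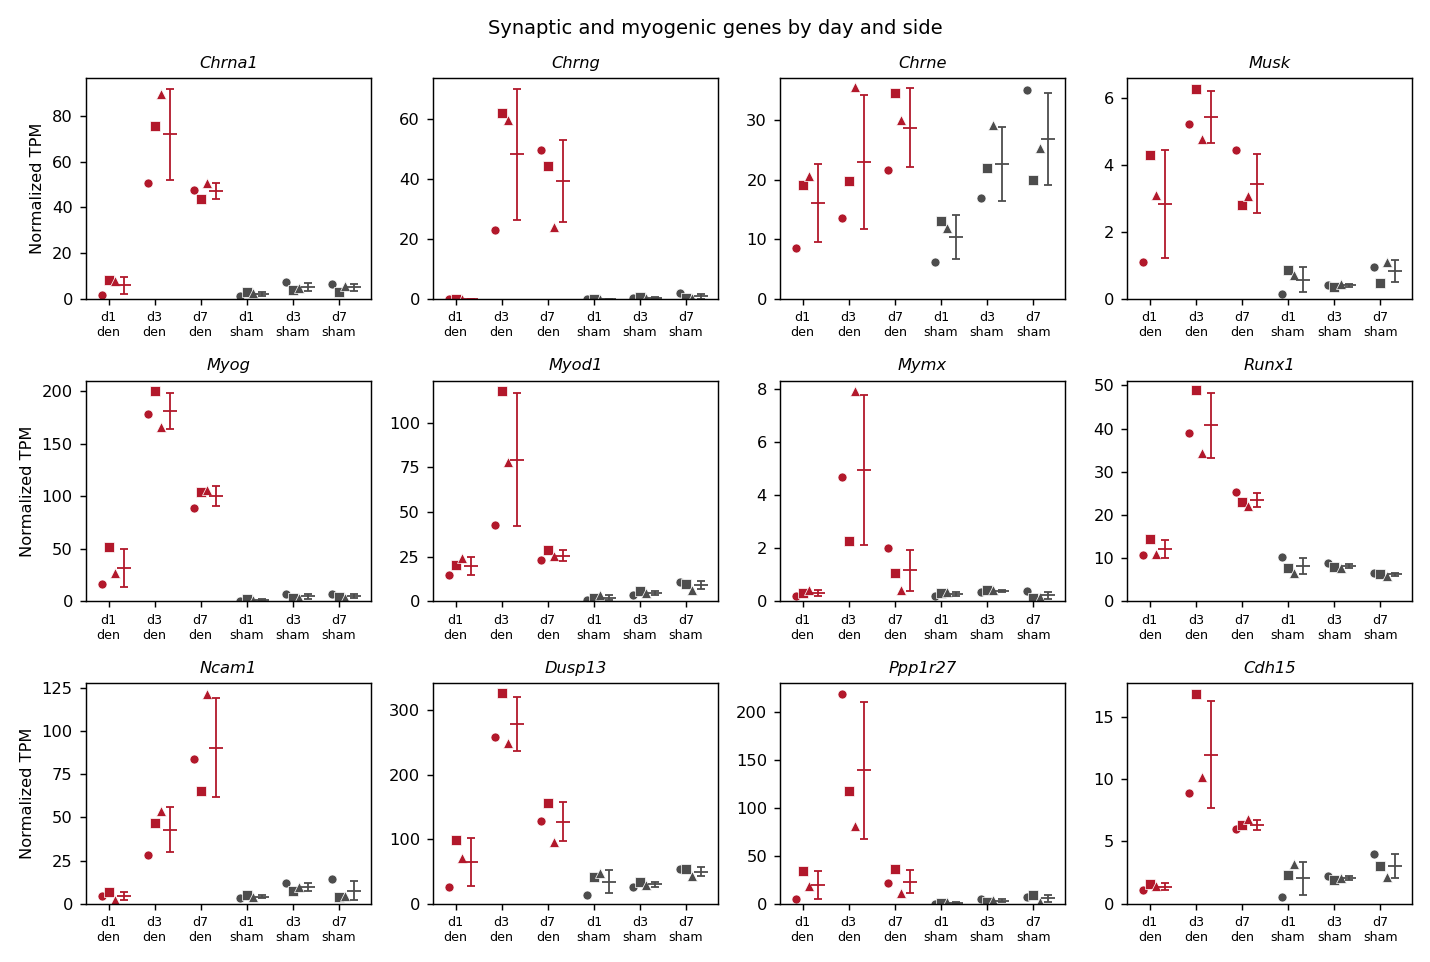
Normalized TPM (y axis, from 0) of 12 synaptic, myogenic and denervation-induced genes at days 1, 3 and 7 (d1, d3, d7), in red for denervated (den) and gray for sham samples, with the mean ± SD of 3 samples beside the points. Chrna1 and Chrng overlap between days 3 and 7, whereas Myod1, Myog, Mymx, Dusp13, Ppp1r27 and Cdh15 are lower in every day 7 denervated sample than in any at day 3.

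These genes belong to muscle, and the muscle markers took a larger part of the RNA at day 7, so the comparison was repeated with each sample scaled to its muscle markers. The median of all genes then moved to -0.63, and 66 genes passed, 6 higher and 60 lower, of which 11 were among the 54. The 60 included 7 hair keratin-associated genes, such as Krtap16-3 (-2.91), and the Y-linked Eif2s3y (-4.92) and Ddx3y (-3.89), which day 7 replicates 1 and 2 nearly lacked. Relative to muscle, Myod1 (-2.16, adjusted p = 0.00286), Myog (-1.53, adjusted p = 0.042), Mymx (-2.05, adjusted p = 0.0449), Ppp1r27 (-3.24, adjusted p = 0.000476), Dusp13 (-1.82, adjusted p = 0.0107), Sln (-2.60, adjusted p = 0.0107) and Cacng1, a calcium channel subunit of muscle (-1.54, adjusted p = 0.042), were lower at day 7, each by more than the shift of all genes. The adjusted p of this scaling measure a difference from the muscle markers, so the shift of all genes enters every lower call. A fall beyond that shift was not tested. The rises of Myh2, Klk1b7-ps and Trbj1-4 and the falls of Cited1, Aldh3b1, Dppa5a, Traf3ip3, Traf4, Cd82, Tmem189 and Gm15310 passed under both scalings. Klk1b7-ps and Trbj1-4 were below 1 in every day 3 sample before the muscle scaling and so had to differ, which makes their passes no support. Nudt4 and Akr1b10, risen genes named after their values were seen, changed sign, to -0.0866 and -0.00978.

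Protein turnover and energy genes differed little in size. Of 31 proteasome genes none passed by limma and 5 had an unadjusted p under 0.05, against 14.1% of all genes. Yet 29 had a log2 difference below 0 and 14 were lower in every day 7 sample, against 9.65% of all genes. Their median was -0.18 and on the sham side -0.12. Psmb5, a catalytic subunit, read 270, 288 and 279 at day 3 and 203, 220 and 204 at day 7. For the 35 respiratory chain genes there was a median of 0.0457 (sham 0.38), or -0.000375 without day 7 replicate 3. None passed by limma, and 4 had an unadjusted p under 0.05, against 14.1% of all genes. Of 25 genes of muscle metabolism 1 passed, against 0.273% of all genes called higher, and the median was 0.39 (sham 0.47). That gene, Lrrc14b, passed the filter through day 7 alone. It passed in none of the 3 fits without 1 sample in which it was tested. Fgf21, a hormone released by stressed muscle, on the list of stress genes, read 3.62, 4.56 and 1.65 at day 3 and 0.377, 0.723 and 0.359 at day 7 (-1.87, adjusted p = 0.0735).

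Markers of the other cells in the punch were measured in the same samples. Summed macrophage markers (22 genes) lay between 478 and 689 at day 3 and between 592 and 1109 at day 7, and overlapped. None of the 22 passed by limma and 6 had an unadjusted p under 0.05, against 14.1% of all genes. Their median of 0.51 (sham 0.14) was 0.18 without day 3 replicate 1, 0.84 without day 3 replicate 3 and -0.00481 rescaled to the muscle markers. In that scaling the median of all genes was -0.63. Lyz2, lysozyme, read 116, 150 and 206 at day 3 and 334, 212 and 508 at day 7. Adipocyte markers (12 genes) summed to between 642 and 1010 at day 3 and between 989 and 1979 at day 7, with a median of 0.82 (sham 0.22). None passed by limma, and 6 had an unadjusted p under 0.05, all higher, against 7.45% of all genes. Without day 3 replicate 2 the adipocyte median was 0.50, and rescaled to the muscle markers 0.15. Car3, an enzyme abundant in fat and in slow muscle, read 94.3, 102 and 183 at day 3 and 443, 376 and 955 at day 7 (2.16, adjusted p = 0.0572). Neutrophil markers summed to between 440 and 2352 at day 3 and 1386 and 2703 at day 7. Epidermal markers summed to between 10007 and 12445 at day 3 and 9884 and 13604 at day 7, and hair keratins to between 2891 and 4830 and between 1756 and 3839. Myelin markers (16 genes) summed to 548 to 592 at day 3 and 494 to 506 at day 7 on the denervated side, while the sham side spread from 432 to 1264 at day 3 and from 588 to 1054 at day 7. On the denervated side the days did not overlap for myelin and muscle, and their part in single genes, other than by the muscle scaling above, was not tested. Of 32 cell cycle genes none passed with limma and 11 had an unadjusted p under 0.05, all 11 higher, against 7.45% of all genes. Their median was 0.33 (sham 0.17), 0.17 without day 3 replicate 1 and -0.31 rescaled to the muscle markers, with Mki67, a marker of dividing cells, at 5.89, 7.81 and 7.65 at day 3 and 11.1, 10.8 and 9.93 at day 7.

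**Figure D5:**
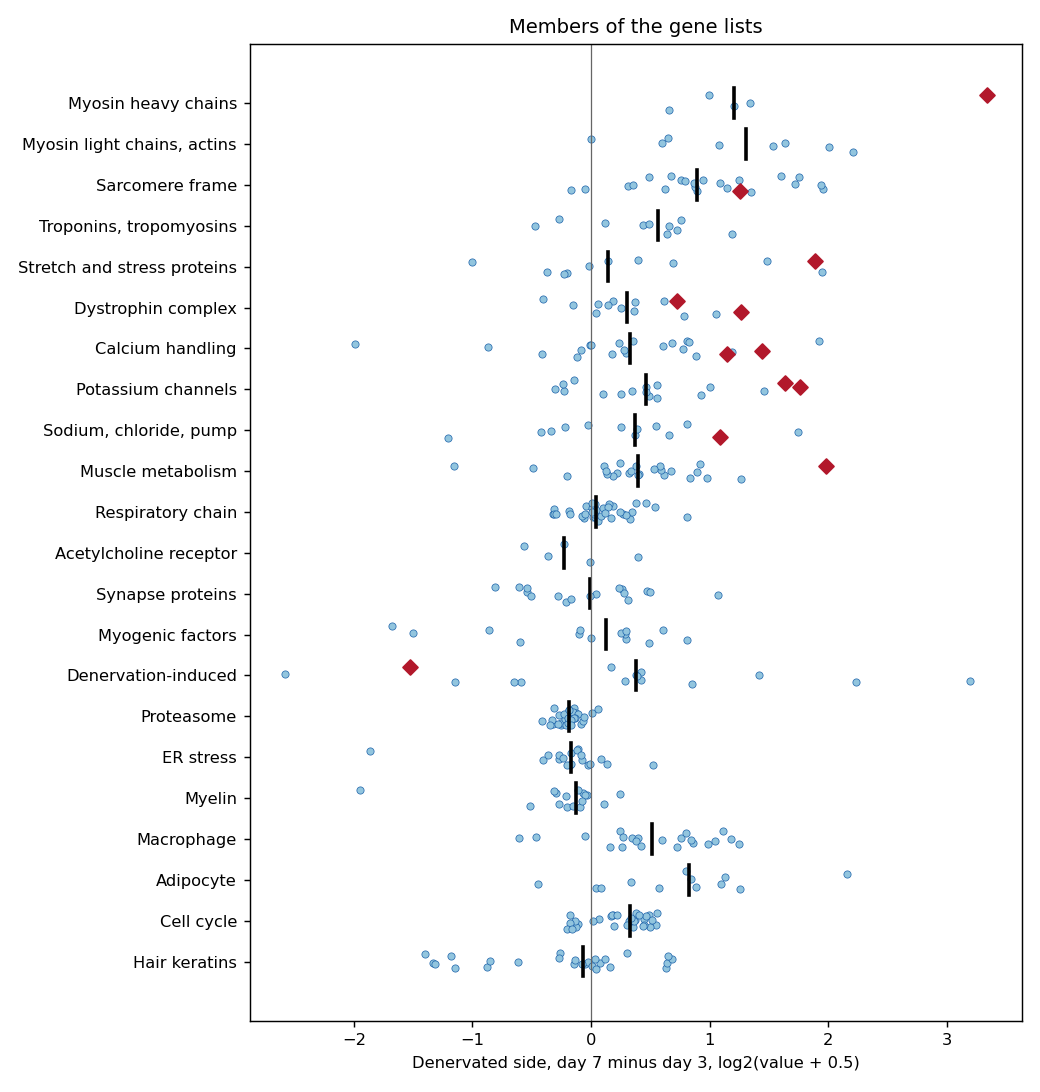
Log2 difference of day 7 minus day 3 on the denervated side (x axis, log2(value + 0.5)) for each tested member of 22 gene lists (rows), where black bars are list medians, diamonds are genes with an adjusted p under 0.05 and the height within a row has no meaning. The lists of contractile genes lie to the right of 0, with medians of 1.20 for myosin heavy chains and 0.89 for the sarcomere frame, and the proteasome genes lie close together just left of 0.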

How the data were processed

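RNA from punches of denervated and sham whisker pad was sequenced at days 1, 3 and 7, with 3 mice a day. The authors removed duplicates, trimmed the reads, quantified transcripts with Kallisto (0.43.1 in the submitters' processing notes) on Ensembl transcripts of GRCm38 and normalized TPM between samples with Sleuth, and deposited that signal for 113194 transcripts. Column sums were 942292 to 1143839 in the 6 samples compared. TPM holds no read number, and the depth is not given in the sources used here, so no counting interval is given. Day 7 columns were matched to samples by their S number, since their mouse names differed from the titles.

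Values were summed over the transcripts of a gene (98.46% of transcripts matched the gene annotation, GENCODE M21). Genes at 1 or more in at least 3 of the 6 samples were tested with limma 3.58.1 (R 4.3.3) on log2(value + 0.5), with a mean-variance trend and the 9 denervated samples in the fit. The difference between sides and the sham differences used all 18 samples, with genes at 1 or more in at least 3 of the 12 samples of days 3 and 7. Samples of the same number are the 2 sides of 1 mouse, and their deviations from the group means correlated at 0.151 to 0.538, so the mouse was also fitted as a block. The script was tested on simulated data. Alternatives were other pseudocounts, filters and scalings, leaving out samples, other samples in the fit, single transcripts and, chosen after seeing the data, a term for Y-linked transcripts. Genes named in the text came mainly from 46 gene lists and the 15 largest rises and falls that passed, leaving out clone names. The 8 largest of each sign in the test of sides were a further source. Genes, lists and tests were chosen with earlier results of these data known. Some listed genes are not reported here. Promoters and starts come from RefSeq on GRCm38.p6.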

Additional observations from a re-analysis of the deposited data

Results flagged for a closer look

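For 3 genes the day 7 minus day 3 difference itself differed between the denervated and the sham side, by the test of that difference in the limma model of all 18 samples. Cited1 differed by -3.72 on the log2 scale (adjusted p = 0.0281), being lower at day 7 in 3 of 3 denervated samples and overlapping between the days on the sham side. Gm15310, a transcribed pseudogene, differed by -3.29 (adjusted p = 0.00251), with denervated values of 21.3 to 25.2 at day 3 and 1.5 to 1.6 at day 7. Trbj1-4 differed by 3.92 (adjusted p = 8.81e-05), a value that depends on the pseudocount because the gene is listed at 0 in every sample other than the denervated ones of day 7. It met the filter of this test through those samples alone and so had to differ, which makes its pass no support. Groups of 3 samples are too small for a check of single samples that stand apart.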

How the results depend on the processing

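The count of 54 genes on the denervated side was 28 with a pseudocount of 0.1, 29 when samples were rescaled to an equal sum, 5 with the term for Y-linked transcripts and 8 of 32762 when each transcript was tested on its own, and from 5 to 28 when 1 sample was left out. The cause was not tested. Fits that left out 1 sample also held fewer samples, and without a day 7 sample 7 of the 54 genes were not tested. The split of 41 higher and 13 lower became 19 and 10 with equal sums, 6 and 60 when rescaled to the muscle markers, and 31 and 27 with all 18 samples in 1 fit. All 54 kept their sign under a pseudocount of 0.1 or 1, a filter of values above 0, both other whole-sample scalings and the Y-linked term. Of the 33 named genes that passed, calls kept were 17 with a pseudocount of 0.1, 33 with 1, 20 with equal sums, 10 with the muscle scaling and 2 with the Y-linked term, and none of the 33 reversed. Nudt4 and Akr1b10, outside those 33, changed sign with the muscle scaling (-0.0866 and -0.00978).

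The count of 3 genes that differed between the sides became 0 with a pseudocount of 0.1, with a minimum value of 5 and with the muscle scaling (limma, 1063, 857 and 118 genes at an unadjusted p under 0.05), 5 with values above 0 and 5 with the Y-linked term, and was from 1 to 3 when 1 sample was left out (1 without day 7 denervated replicate 1 or 3). The replicate block by mouse gave 4, adding Dusp13, and changed no other call on that test. Days 3 and 7 come from different mice, so no block applies to the comparison of the days.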
